A study of Homo sapiens with 11 samples.

Results

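The genes of cholesterol synthesis and its SREBP control were followed in SCC9 cells, an established human cell line of tongue squamous carcinoma origin, exposed to nimesulide, cisplatin or both. The genes were chosen by name, with earlier results of these data known. They were SREBF1, HMGCS1, IDI1, SQLE, MSMO1, ACAT2, FDFT1 and INSIG1, with every probe set annotated to one of these symbols alone. This gave 12 probe sets of 7 of the 8 genes, among 16383 probe sets of 8549 genes on the Affymetrix U133A arrays. FDFT1 was not analysed here. SREBF1, HMGCS1, MSMO1 and ACAT2 had 1 probe set each, IDI1 had 2, and SQLE and INSIG1 had 3 each.

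All groups were SCC9 cells in the same serum-containing medium. The controls were handled like the treated dishes but received no agent. The cisplatin group was given the DNA-crosslinking platinum compound cisplatin at 0.5 µmol/L. The nimesulide group was given nimesulide, an anti-inflammatory agent with preference for cyclooxygenase-2, at 100 µmol/L, and the combination group was given both at these doses. Each of control, cisplatin and nimesulide was represented by 3 arrays (letters A, B and C). The combination was represented by 2 (letters A and B). The time of exposure was not given in the sources used here, and 1 cell line stands for the tumour type. Values are log2 intensities after robust multi-array averaging (RMA).

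Cholesterol is built from acetyl-CoA through mevalonate, isoprenoids and squalene. The enzymes are switched on together by the sterol regulatory element-binding proteins (SREBPs). These transcription factors are made as precursors in the endoplasmic reticulum, where INSIG proteins hold them back when sterols are plentiful. When sterols fall, SCAP escorts the precursor to the Golgi, proteases release its active part, and that part enters the nucleus. SREBF1 encodes SREBP-1, which mainly drives fatty acid synthesis, and SREBF2 encodes SREBP-2, which mainly drives cholesterol synthesis. INSIG1 and the synthesis enzymes are themselves SREBP targets, so their transcripts serve as a readout of the pathway.

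Array medians lay between 5.37 and 5.43, and arrays correlated at 0.996 to 0.998 within a treatment and at 0.995 to 0.998 between treatments. Among 7 measured squamous epithelial markers, CDH1 and SFN were high on every array (10.3 to 10.8). DSP (8.43 to 9.01) and KRT5 (7.40 to 7.99) were also high. KRT16 (6.45 to 7.71) and KRT14 (4.55 to 6.07) were intermediate, and KRT13 (3.75 to 4.17) was low. The 75th percentile of all levels was 7.13 and the 25th 4.11. The 5 fibroblast, 3 leukocyte and 3 endothelial markers measured lay between 2.65 and 5.62. The nimesulide B array was the lowest of all 11 arrays for 7 of the 12 member probe sets, against 7.53% of all probe sets. These were SREBF1, MSMO1 and every IDI1 and INSIG1 probe set, so several read the same gene. For member differences that nimesulide B moved strongly, the value without this array is given beside the result.

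The regulatory sequence in front of 4 members is shown because SREBPs act at such promoters together with the factors NF-Y, which binds CCAAT, and Sp1, which binds GC boxes. The sequences are the 250 bases before the annotated start in RefSeq, build GRCh38.p14, written 5′ to 3′ on the strand of the gene. A window was found for 5 of the 8 members, with 8 windows in all; SQLE, ACAT2 and FDFT1 had none. Capitals mark CCAAT on either strand (CCAAT or ATTGG) and CACGTG. SREBF1 lies on the minus strand at chr17:17836987-17837236, HMGCS1 on the minus strand at chr5:43313413-43313662, MSMO1 on the plus strand at chr4:165327419-165327668 and INSIG1 on the plus strand at chr7:155297628-155297877.
SREBF1: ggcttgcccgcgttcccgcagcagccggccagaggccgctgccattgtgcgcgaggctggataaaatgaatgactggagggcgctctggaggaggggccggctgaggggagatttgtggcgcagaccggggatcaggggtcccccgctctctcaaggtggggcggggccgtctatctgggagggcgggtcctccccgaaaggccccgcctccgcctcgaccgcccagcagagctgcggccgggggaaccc
HMGCS1: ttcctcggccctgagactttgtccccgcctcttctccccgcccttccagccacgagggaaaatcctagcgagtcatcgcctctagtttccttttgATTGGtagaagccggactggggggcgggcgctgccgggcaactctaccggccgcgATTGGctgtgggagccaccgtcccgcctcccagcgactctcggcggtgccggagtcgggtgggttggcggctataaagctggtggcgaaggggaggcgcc
MSMO1: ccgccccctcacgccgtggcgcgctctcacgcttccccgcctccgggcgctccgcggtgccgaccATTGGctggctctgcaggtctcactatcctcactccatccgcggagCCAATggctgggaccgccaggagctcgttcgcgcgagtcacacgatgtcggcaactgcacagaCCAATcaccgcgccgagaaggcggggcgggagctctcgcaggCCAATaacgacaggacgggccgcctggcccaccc
INSIG1: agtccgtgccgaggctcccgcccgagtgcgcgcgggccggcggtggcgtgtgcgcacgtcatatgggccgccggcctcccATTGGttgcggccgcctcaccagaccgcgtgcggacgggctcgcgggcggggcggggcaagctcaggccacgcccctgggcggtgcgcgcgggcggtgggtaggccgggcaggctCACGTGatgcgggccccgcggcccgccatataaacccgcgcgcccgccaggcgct

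The SREBF1 window held 0 CCAAT matches, the HMGCS1 window shown 2, that of MSMO1 4 and that of INSIG1 1. Genes with several annotated starts differed between their windows. The other HMGCS1 window, at chr5:43313182-43313431, held 0 CCAAT, and the 3 windows of IDI1 held 3, 2 and 0. INSIG1 also held the only CACGTG among these 4 windows. CCAAT was present in 32% of 35116 RefSeq windows of this length, and CACGTG in 6.34%. The GC box GGGCGG, found in 42.6% of windows, occurred 3 times before SREBF1, 2 times before HMGCS1, 2 times before MSMO1 and 5 times before INSIG1. Both strands were searched for the sterol element as TCACNCCAC and more loosely as TCACNNCAC, which includes the first, for the ATF4 element TGATGNAA and for the LXR element, a direct repeat. None of these 4 strings was in any of the 8 member windows, and their shares over all windows were 0.883%, 2.88%, 3.14% and 0.0142%. These matches describe letters within 1 window and were chosen with the sequences in view.

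SREBF1 gave the largest difference of the members in nimesulide against control. Control arrays A, B and C read 7.77, 7.17 and 7.65 on the log2 scale. Nimesulide arrays A, B and C read 7.33, 6.53 and 7.02. Nimesulide B and C lay below every control, but nimesulide A lay above control B, so the groups overlapped. Within letters the difference was -0.44 in A, -0.64 in B and -0.63 in C, lower in 3 of 3.

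Averaged over arrays, SREBF1 was 7.53 ± 0.32 (SD, n = 3) in controls and 6.96 ± 0.40 (SD, n = 3) with nimesulide, a difference of -0.57 (SE 0.19), or 67.4% of the control intensity. In the limma fit over all 16383 probe sets this did not pass, with an adjusted p of 0.906. With the replicate letter as a block, the same difference had an SE of 0.096 and passed in limma at an adjusted p of 0.0249, ranking 27 of 16383 probe sets by p. The block is printed here because same-letter control and nimesulide arrays deviated together (r = 0.135 to 0.246 over 3 pairs). In that blocked fit 0.226% of all probe sets were called and 0.177% were called as falling.

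The blocked call of SREBF1 depended on single arrays. In limma its adjusted p was 0.153 without control A, 0.108 without control B and 0.307 without control C. It was 0.229 without nimesulide B and 0.283 without nimesulide C, but 0.0142 without nimesulide A. Leaving out any 1 cisplatin or combination array kept the call, with adjusted p between 0.00337 and 0.0460. Leaving out a whole letter gave 0.0158 without A, 0.0896 without B and 0.788 without C. Of all 16383 probe sets, 37 were called against control with every array kept. The count was 19, 13 and 9 without control A, B and C, and 40, 14 and 4 without nimesulide A, B and C. Without 1 cisplatin or combination array it was 28 to 41. The blocked difference itself stayed between -0.67 and -0.47 in these fits. Without the block and without nimesulide B it was -0.35 (limma adjusted p = 0.9997).

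**Figure D1:**
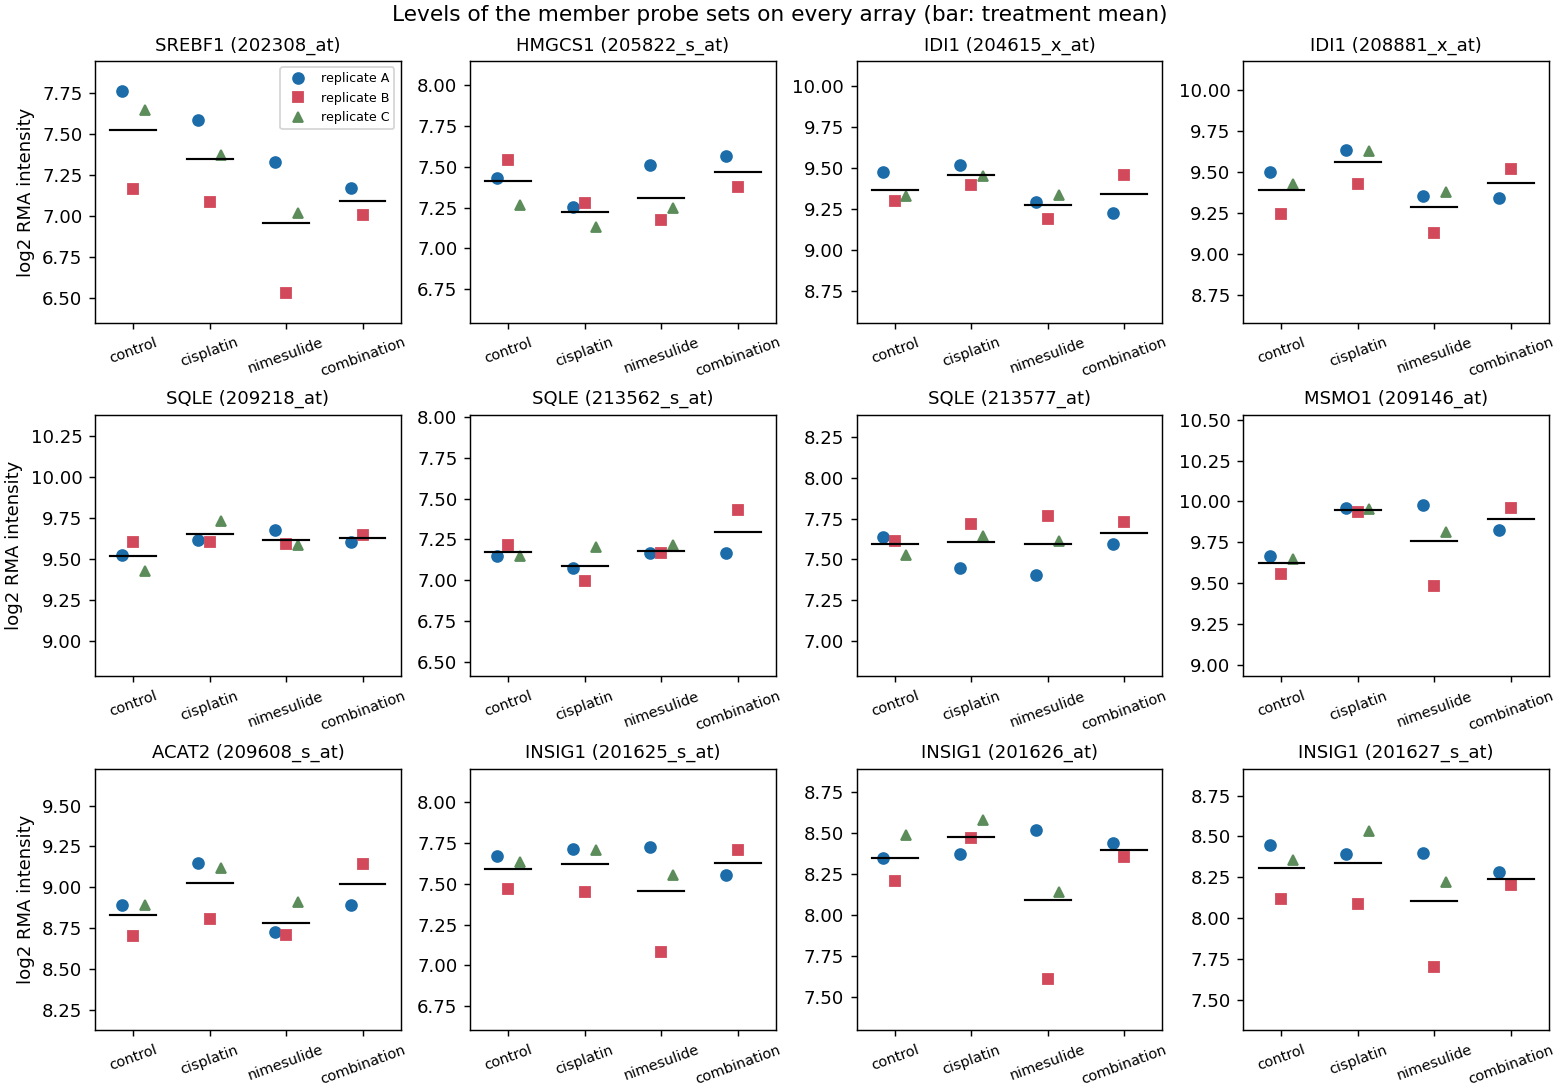
The log2 RMA intensity of each of the 12 member probe sets on the 11 arrays, by treatment and replicate letter, with the mean of each treatment as a bar; every panel spans the same range of log2 units. The mean of SREBF1 was 7.53 in controls and 6.96 with nimesulide, with replicate B lowest in all 4 treatments, while MSMO1 on cisplatin arrays lay between 9.93 and 9.96, above its controls.

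Cisplatin arrays A, B and C read 7.58, 7.09 and 7.37 for SREBF1, and combination arrays A and B read 7.17 and 7.01. Replicate B was the lowest in all 4 treatments, with a mean deviation from the treatment mean of -0.35 over the 3 treatments with 3 arrays, against 0.28 for A and 0.068 for C.

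By treatment mean, the order of SREBF1 was control (7.53), cisplatin (7.35 ± 0.25), combination (7.09 ± 0.12, n = 2) and nimesulide (6.96), and neighbours in this order overlapped. Against control, the limma difference was -0.18 with cisplatin (SE 0.19, adjusted p = 0.968) and -0.44 with the combination (SE 0.21, adjusted p = 0.637). Both single comparisons and the combination share the same controls. Within letters cisplatin gave -0.18, -0.079 and -0.28, and the combination gave -0.60 in A and -0.16 in B. SREBF1 thus lay below its same-letter control on every treated array.

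Whether nimesulide acted on SREBF1 differently with cisplatin present was tested as an interaction. It was 0.31 (SE 0.28, limma adjusted p = 0.965), which leaves the effects of nimesulide alone and on top of cisplatin not distinguished. The interaction was 0.094 without nimesulide B, and leaving out each array in turn gave 0.094 to 0.50. Added to cisplatin, nimesulide gave -0.26 (SE 0.21, limma adjusted p = 0.840), with -0.41 in A and -0.081 in B. Nimesulide pooled over cisplatin status gave -0.41 (SE 0.14, limma adjusted p = 0.498).

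The remaining members differed less from control with nimesulide. Of the 12 member probe sets, 0 were called in limma without the block, where 0.0061% of all probe sets were called, and SREBF1 was the single member called with it. At an unadjusted p under 0.05, 1 member probe set passed, again SREBF1, against 5.43% of all probe sets. Differences ran from -0.57 to 0.13, with 8 lower and 4 higher and a median of -0.097, and over all probe sets 8194 of 16383 were lower. The arrays of the 2 groups overlapped for all 12, while 9.79% of all probe sets did not overlap. All 3 letters were lower for SREBF1, IDI1 208881_x_at and INSIG1 201627_s_at, which is 3 of 12 against 13.6% of all probe sets. Without nimesulide B the median was -0.014.

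INSIG1, the sterol-sensing anchor that retains SREBPs, was measured by 3 probe sets, and on each of them nimesulide A was the highest and nimesulide B the lowest of the nimesulide arrays. On 201626_at the controls read 8.35, 8.21 and 8.49, and the nimesulide arrays read 8.52, 7.61 and 8.14. Nimesulide A was above all 3 controls, whereas B and C were below them. The difference was -0.26 (SE 0.16, limma adjusted p = 0.957), and it was -0.14 on 201625_s_at and -0.20 on 201627_s_at. Nimesulide B gave the lowest value of all 11 arrays on each of the 3 probe sets. Without it the differences, in the order given, were -0.016, 0.050 and 0.00046, so 2 of the 3 turned direction without this array.

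On cisplatin arrays INSIG1 201626_at read 8.37, 8.47 and 8.58, and on combination arrays 8.44 and 8.35. These values overlapped the controls. Against control, its 3 probe sets gave 0.034, 0.13 and 0.030 with cisplatin in the order 201625_s_at, 201626_at, 201627_s_at, and 0.040, 0.051 and -0.064 with the combination. The smallest limma adjusted p among the members was 0.968 with cisplatin and 0.580 with the combination.

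Among the enzymes, MSMO1 had the largest difference with cisplatin. MSMO1 is the methyl sterol monooxygenase that takes part in removing methyl groups after lanosterol. Its control arrays read 9.67, 9.56 and 9.65, and its cisplatin arrays 9.96, 9.93 and 9.96, with no overlap. Within letters cisplatin was higher by 0.29, 0.38 and 0.31. The mean went from 9.62 ± 0.06 to 9.95 ± 0.02 (SD, n = 3 each), a difference of 0.33 (SE 0.10) or 125% of control. It did not pass adjustment over all probe sets in limma (unadjusted p = 0.00584, adjusted p = 0.968), and 4.65% of all probe sets had an unadjusted p under 0.05.

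MSMO1 was also higher with both agents, where the arrays read 9.82 and 9.96 and did not overlap the controls. This difference was 0.27 (SE 0.11, limma adjusted p = 0.580), with 0.16 in A and 0.40 in B. With nimesulide alone MSMO1 read 9.98, 9.48 and 9.81, which spread around the controls on both sides. Letters A and C were above their control by 0.31 and 0.17, and the difference in letter B was -0.075. Without nimesulide B the mean difference of MSMO1 was 0.27 in place of 0.13. Cisplatin pooled over nimesulide status gave 0.23 for MSMO1 (SE 0.075, limma adjusted p = 0.673).

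ACAT2, the cytosolic thiolase that forms acetoacetyl-CoA at the entry to the pathway, read 8.89, 8.70 and 8.89 in controls and 9.15, 8.81 and 9.12 with cisplatin. Each cisplatin array was above its same-letter control, by 0.26, 0.10 and 0.22, but cisplatin B lay below controls A and C. The difference was 0.19 (SE 0.10, limma adjusted p = 0.968). Combination arrays read 8.89 and 9.14, and nimesulide arrays 8.73, 8.71 and 8.91. Pooled over nimesulide status, cisplatin gave 0.22 for ACAT2 (SE 0.076, limma adjusted p = 0.673).

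HMGCS1, which makes HMG-CoA for the mevalonate pathway, lay lower on the cisplatin arrays. Its controls read 7.43, 7.54 and 7.27 and its cisplatin arrays 7.25, 7.28 and 7.13, with the highest cisplatin array just above the lowest control. All 3 letters were lower, with differences of -0.17, -0.26 and -0.14, and the difference was -0.19 (SE 0.097, limma adjusted p = 0.968). With both agents HMGCS1 read 7.56 and 7.37, above every cisplatin array. Combination against cisplatin gave 0.25 (SE 0.11, unadjusted p = 0.0381, limma adjusted p = 0.678), with 0.31 in A and 0.095 in B. Nimesulide alone gave 7.51, 7.17 and 7.25, a difference from control of -0.10 (SE 0.097), or -0.033 without nimesulide B.

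HMGCS1 had the smallest unadjusted interaction p of the members. The interaction was 0.35 (SE 0.14, unadjusted p = 0.0307, limma adjusted p = 0.963), since the nimesulide mean was below the control mean but the combination mean was above the cisplatin mean. At this unadjusted threshold 1 of 12 member probe sets passed, against 4.57% of all probe sets. At an adjusted p under 0.05 in limma, 0 members and 0% of all probe sets were called.

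IDI1, the isomerase that interconverts the isoprenoid units, was read by 2 probe sets. On 208881_x_at controls gave 9.50, 9.25 and 9.43, cisplatin 9.63, 9.43 and 9.63, nimesulide 9.35, 9.12 and 9.38, and the combination 9.34 and 9.52. Every letter was higher with cisplatin (0.13, 0.18 and 0.20) and lower with nimesulide (-0.15, -0.12 and -0.048). The limma differences were 0.17 (SE 0.093, adjusted p = 0.968) and -0.11 (SE 0.093, adjusted p = 0.960). The probe set 204615_x_at gave 0.087 and -0.093 in the same comparisons. Without nimesulide B the differences with nimesulide were -0.024 on 208881_x_at and -0.052 on 204615_x_at. Probe sets with the suffix _x_at may read related transcripts as well.

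SQLE is squalene epoxidase, the oxygen-dependent enzyme that commits squalene to sterols. Its most intense probe set, 209218_at, read 9.53, 9.60 and 9.43 in controls, 9.61, 9.61 and 9.74 with cisplatin, 9.68, 9.59 and 9.58 with nimesulide, and 9.61 and 9.64 with the combination. Cisplatin and combination arrays were all above the controls, although the lowest array of each lay barely above control B. The differences from control were 0.13 with cisplatin, 0.098 with nimesulide and 0.11 with the combination (SE 0.068, 0.068 and 0.076), with limma adjusted p of 0.968, 0.960 and 0.752. Of the other SQLE probe sets, 213562_s_at differed in direction with cisplatin and 213577_at had smaller differences. On 213562_s_at the differences were -0.080 with cisplatin, 0.012 with nimesulide and 0.13 with the combination, and on 213577_at they were 0.013, 0.0016 and 0.071. The difference of 213577_at with nimesulide was -0.085 without nimesulide B.

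**Figure D2:**
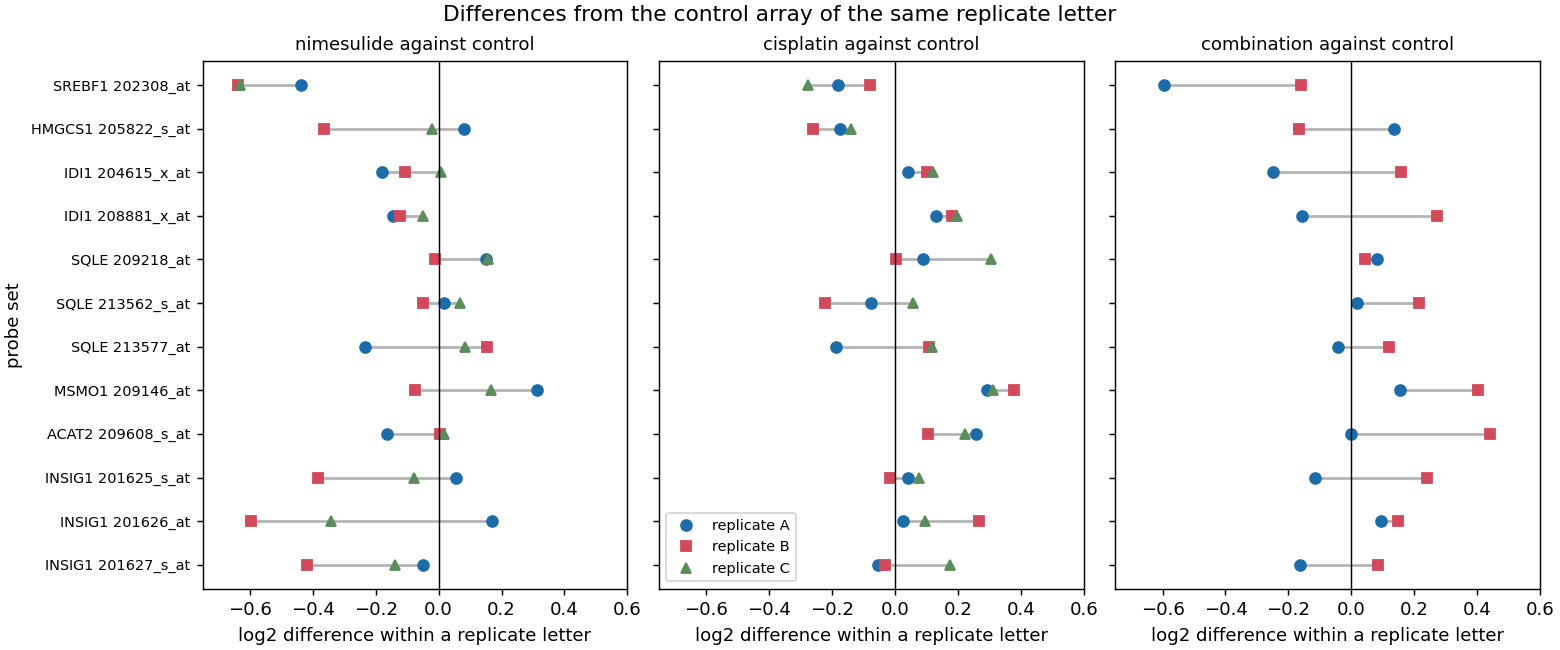
Log2 differences of each treated array from the control array of the same replicate letter, for the 12 member probe sets; a grey line joins the letters. SREBF1 was below 0 in every letter of all 3 comparisons, MSMO1 with cisplatin lay between 0.29 and 0.38, and INSIG1 with nimesulide spread from -0.60 to 0.17.

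Counted together, the member probe sets gave no call with cisplatin. In cisplatin against control 0 of 12 were called in limma, as were 0% of all probe sets, and 1 had an unadjusted p under 0.05, against 4.65% of all probe sets. Of the 12, 9 were higher and 3 lower, with a median of 0.061, against 41.5% higher over all probe sets. In 6 of 12 every letter was higher, against 10.7% of all probe sets, and in 2 every letter was lower, against 17.9%. The arrays of MSMO1 and SQLE 209218_at did not overlap the controls, which is 2 of 12 higher against 3.32% of all probe sets. Several of these probe sets read the same gene, so they are not separate observations.

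With the combination against control, 0 of 12 were called in limma, as were 0% of all probe sets, and 1 had an unadjusted p under 0.05 (MSMO1), against 7.9% of all probe sets. The members split into 9 higher and 3 lower with a median of 0.054, against 43.8% higher over all probe sets. Arrays of MSMO1 and SQLE 209218_at were above the controls without overlap, 2 of 12 against 9.42% of all probe sets. For SQLE 209218_at the margin was narrow, with combination A at 9.607 and control B at 9.603. The other SQLE probe sets overlapped the controls. Combination against cisplatin also called 0 of 12 members, with 0% of all probe sets called. There 2 members had an unadjusted p under 0.05, HMGCS1 and SQLE 213562_s_at (0.21, SE 0.087, limma adjusted p = 0.661), against 7.09% of all probe sets.

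The means of the 2 single agents lay on opposite sides of the control mean for IDI1, ACAT2 and INSIG1. Nimesulide against cisplatin was lower in 10 of 12 probe sets with a median of -0.19, against 41.5% lower over all probe sets. Within letter A it was higher for HMGCS1 (0.25), MSMO1 (0.018), SQLE 209218_at (0.063), SQLE 213562_s_at (0.093) and every INSIG1 probe set (0.14 on 201626_at). The other member probe sets were lower in that letter. SREBF1 had the largest difference, -0.39 (SE 0.19, limma adjusted p = 0.776), or -0.17 without nimesulide B. Within letters A, B and C it was -0.25, -0.56 and -0.36. Limma called 0 of 12 here, against 0.0061% of all probe sets, and 4 had an unadjusted p under 0.05, against 6.59%. These were IDI1 208881_x_at (-0.28, SE 0.093), IDI1 204615_x_at (-0.18, SE 0.078), ACAT2 (-0.24, SE 0.10) and INSIG1 201626_at (-0.39, SE 0.16), with limma adjusted p between 0.618 and 0.730. Without nimesulide B the difference of INSIG1 201626_at was -0.15, and those of IDI1 208881_x_at, IDI1 204615_x_at and ACAT2 were -0.19, -0.14 and -0.21. Both IDI1 probe sets were lower on every nimesulide array than on any cisplatin array, 2 of 12 against 3.5% of all probe sets. Without nimesulide B the median over the members was -0.076.

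By treatment mean, combination against nimesulide was higher in 12 of 12 probe sets, with a median of 0.14, against 45.1% higher over all probe sets. The letters disagreed. In letter A it was lower for SREBF1 (-0.16), MSMO1 (-0.16), the most intense SQLE probe set and every IDI1 and INSIG1 probe set. In letter B these were all higher, with SREBF1 and MSMO1 each at 0.48. HMGCS1 and ACAT2 were the 2 of 12 probe sets higher in both letters. The share of all probe sets higher in both is not given here, so this count has no reference. Several of the 12 probe sets read the same gene. Limma called 0 of 12 here, where 0% of all probe sets were called. At an unadjusted p under 0.05, 0 of 12 passed, against 6.79% of all probe sets. The nimesulide arrays enter both of these comparisons, so they are not independent, and without nimesulide B the median here was 0.044. Pooled over nimesulide status, cisplatin gave 10 of 12 higher with a median of 0.081, against 40.0% higher over all probe sets, 0 called in limma (0% of all probe sets), and 3 with an unadjusted p under 0.05 (MSMO1, ACAT2 and IDI1 208881_x_at), against 6.89%. Pooled over cisplatin status, nimesulide gave 0 called without the block, against 0.153% of all probe sets, and 1 with an unadjusted p under 0.05 (SREBF1), against 7.56%. With the block SREBF1 was called there, where 0.525% of all probe sets were called, but the combination had only 2 pairs with any other treatment, too few to settle whether the letters pair its arrays. In that blocked fit limma gave SREBF1 -0.40 (adjusted p = 0.0245). The call was lost without letter A (limma adjusted p = 0.131) or letter C (0.236), and on leaving out 8 of the 11 single arrays (0.0526 to 0.149): every control, cisplatin A or B, nimesulide B or C, or combination A.

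Across the 11 arrays SREBF1 did not follow the enzymes evenly. Pearson correlations of its level with the representative probe set of each other member, that with the highest mean, were 0.70 for INSIG1, 0.66 for IDI1, 0.34 for ACAT2, 0.23 for MSMO1, 0.16 for HMGCS1 and -0.30 for SQLE. The 11 points share treatments, replicate letters and the joint normalisation, so these are descriptions only. Nimesulide B was the lowest of the 11 arrays for SREBF1 (6.53), INSIG1 201626_at (7.61), IDI1 208881_x_at (9.12) and MSMO1 (9.48). Correlations without that array were not computed. The genes outside the members most like SREBF1 were FGFBP1 (0.97), SRC (0.96), ALPP (0.94), ARFIP2 (0.94) and SCD (0.93), again over 11 arrays. Most like the mean of the other 6 measured members were HES1 (0.92), HEG1 (0.91), OSR2 (0.90), SGCE (0.90) and KAT2B (0.89).

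The rest of the pathway was read through 4 gene lists, with 1 representative probe set per gene. In limma 0 genes rose and 0 fell in any of these lists in any comparison, with or without the block. Of 19 further sterol pathway genes 13 were measured, and with nimesulide 3 were higher and 10 lower. The median was -0.046 and the range from -0.083 to 0.091, against a median of -0.0026 over all genes. The letters differed, with a median of 0.0019 in A, 0.0011 in B and -0.10 in C. In these letters 6, 6 and 9 of 13 genes were lower. The extremes were PMVK, phosphomevalonate kinase (-0.083), and LBR, a sterol reductase of the nuclear envelope (0.091). Within letters A, B and C PMVK gave 0.0019, 0.054 and -0.30, and LBR gave 0.16, 0.048 and 0.064. With the combination the extremes were MVK, mevalonate kinase (-0.10), and again LBR (0.14).

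The SREBP machinery and sterol transport list had 13 of 21 genes measured, 10 higher and 3 lower with nimesulide, with a median of 0.032. SREBF2 read 7.47, 7.26 and 7.42 in controls and 7.58, 7.29 and 7.42 with nimesulide, a difference of 0.047 (SE 0.094, limma adjusted p = 0.981) beside the -0.57 of SREBF1. Its difference was 0.074 with cisplatin and 0.070 with the combination. SCAP, the escort protein, gave -0.035 with nimesulide, and INSIG2, the paralogue of INSIG1, gave 0.00046. NPC1, which exports cholesterol from lysosomes, had the highest value (0.19, SE 0.080, limma adjusted p = 0.906), and MBTPS1, a protease that cleaves SREBPs, the lowest (-0.095). With the combination the extremes were INSIG2 (0.15) and UBE2G2 (-0.053).

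The fatty acid and lipid targets of SREBP-1 had 14 of 23 genes measured. With nimesulide 7 were higher and 7 lower, with a median of -0.023 and a range from -0.37 to 0.36, and with cisplatin 11 were higher and 3 lower, with a median of 0.097. LPIN1, a phosphatidate phosphatase, read 7.50, 7.18 and 7.28 in controls and 7.24, 6.53 and 7.09 with nimesulide. All 3 letters were lower, at -0.27, -0.65 and -0.19, and the groups overlapped (difference -0.37, SE 0.15, limma adjusted p = 0.906). ACSL1, an acyl-CoA synthetase, gave 0.36 (SE 0.15, limma adjusted p = 0.906), with 0.34, -0.085 and 0.83 within letters. SCD, the stearoyl-CoA desaturase, read 10.6, 10.3 and 10.5 in controls and 10.6, 9.73 and 10.3 with nimesulide, and here too replicate B was lowest in both groups. With the combination the extremes were SCD (-0.16) and ACSL1 (0.32).

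LXR, the oxysterol receptor that induces SREBF1, and sterol efflux were covered by 9 of 11 genes. With nimesulide 3 were higher and 6 lower, with a median of -0.059, from -0.15 for OSBP, an oxysterol-binding lipid transfer protein, to 0.046 for RXRA, the partner of LXR. With the combination ABCA1, a cholesterol exporter, had the lowest value (-0.19, SE 0.079) and ABCG4, another sterol transporter, the highest (0.24, SE 0.10). Their limma adjusted p were 0.574 and 0.585. ABCA1 was dim on all arrays (3.83 to 4.19, with the 25th percentile of all levels at 4.11). Its combination arrays A and B read 3.83 and 4.07.

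**Figure D3:**
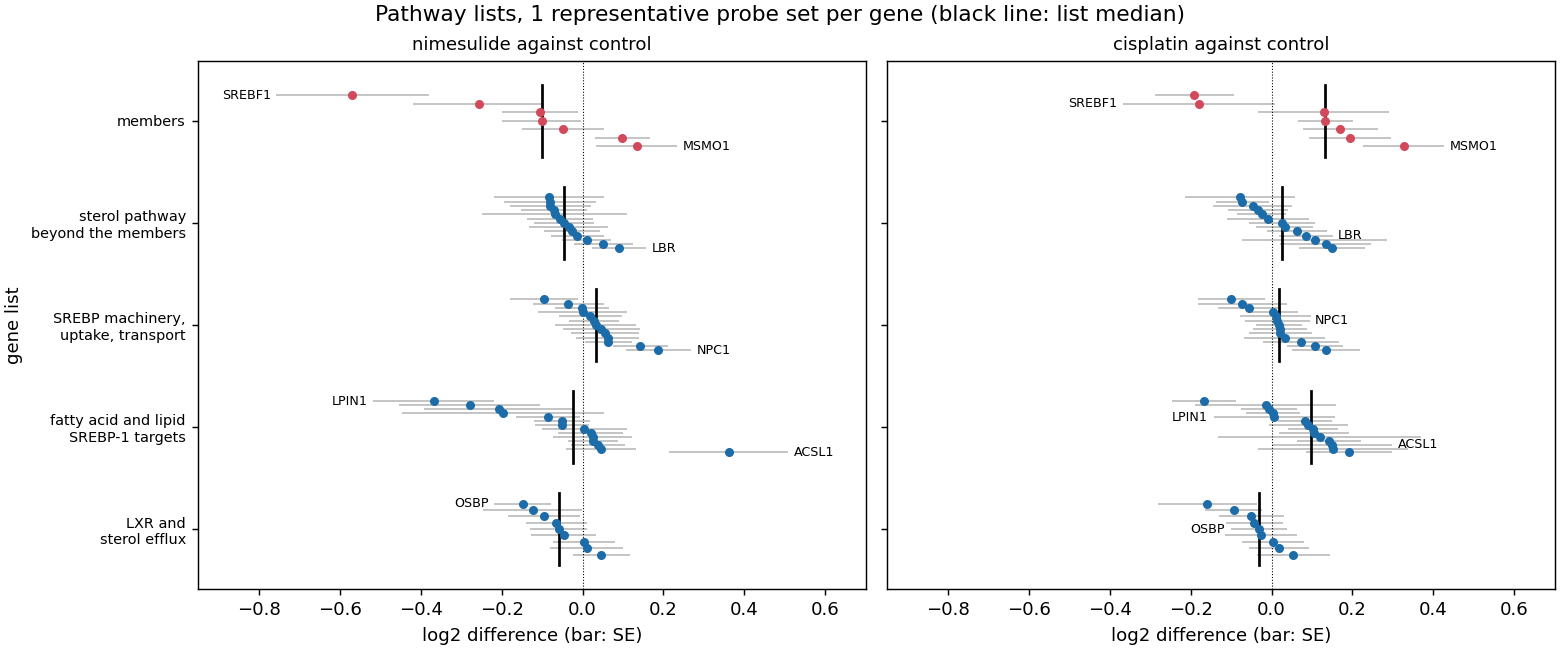
Log2 differences from control with their SE for the members and the 4 pathway lists, 1 probe set per gene, sorted within each list, with nimesulide on the left and cisplatin on the right; the black line is the list median. SREBF1 with nimesulide (-0.57) lay below the lowest gene of every pathway list, of which LPIN1 (-0.37) was the lowest.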

How the data were processed

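Each of the 11 samples of SCC9 total RNA was hybridised to 1 Affymetrix U133A array. Per the submitters' processing notes, the authors summarised the arrays with RMA; its version was not given in the sources used here. The deposited table was read as log2 intensities, since its values run from 2.53 to 13.4. RMA equalises the arrays, which hides any change common to all transcripts. The annotation table gave 1 symbol for 14045 probe sets, several for 792 and none for 1546.

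Treatment means were estimated by limma 3.58.1 (lmFit, eBayes; R 4.3.3) from the 11 arrays together, leaving 7 residual degrees of freedom. Tests were two-sided, with Benjamini-Hochberg adjustment over 16383 probe sets within each of 9 contrasts, and calls were made at an adjusted p under 0.05. The script was tested on simulated data. The number of arrays limits the precision: the median SE of a difference between 3 and 3 arrays was 0.08. Separate cultures per array are not stated outright, and p-values then cover only the spread among these arrays, which may be technical.

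Each letter set held RNA of all 4 treatments, without a stated shared culture or day. Same-letter deviations from the treatment means correlated above 0.1 in every pair for nimesulide with control and for cisplatin with control (0.247 to 0.355), but not in every pair for nimesulide with cisplatin or for the combination with control or with nimesulide. The combination with cisplatin exceeded it in both of its 2 pairs (0.102 to 0.115). The alternatives were the letter as a block (5 residual degrees of freedom), arrays or letters left out, quantile normalisation, median centring, a filter on dim probe sets and an intensity trend.

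Members and gene lists were chosen with earlier results of these data known. All member probe sets are named. Other pathway genes are named where they were the highest or lowest of their list with nimesulide or the combination against control, or were SREBF2, SCAP, INSIG2 or 2 further genes that are not reported here. Likeness names the 5 genes with the highest correlation. Promoters came from RefSeq's table for GRCh38.p14.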

Additional observations from a re-analysis of the deposited data

How the results depend on the processing

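In 11 arrays of 1 cell line, small differences cannot be told from replicate spread, and the combination has no replicate C here. The fits with the block and arrays or letters left out were chosen after seeing the data. With the replicate block, 1 member probe set was called in nimesulide against control, also without letter A. In nimesulide pooled over cisplatin status 1 was called, also without letter B. All of these calls were SREBF1. With the block and without letter A, 1 was called in nimesulide against cisplatin, INSIG1 201626_at. Its difference was 0.14 in the left-out letter A, -0.86 in B and -0.44 in C. Same-letter arrays did not correlate above 0.1 in every pair for this comparison (lowest r = 0.083). The share of all probe sets called in that fit is not given here. The pooled call was lost in the other blocked fits without a letter. With the block and 1 array left out, SREBF1 was the only member followed. It was called in 6 of 11 fits against control and in 3 of 11 pooled. Over all 16383 probe sets these fits called 4 to 41 against control and 35 to 91 pooled. The block on all arrays changed no other member call, and the other counts over members were 0. Without the block, leaving out 1 array moved SREBF1 with nimesulide between -0.755 and -0.354 (limma adjusted p 0.517 to 0.9998). Without letter C, the direction turned for HMGCS1 with the combination (-0.015), INSIG1 201627_s_at with cisplatin (-0.044), SQLE 213562_s_at with nimesulide (-0.016) and SQLE 213577_at with nimesulide (-0.0398) and cisplatin (-0.0398); median centring turned IDI1 204615_x_at with the combination (0.014). Leaving out 1 array gave ranges across 0 against control. With the combination these were -0.037 to 0.15 for HMGCS1, -0.14 to 0.089 for IDI1 204615_x_at, -0.049 to 0.13 for IDI1 208881_x_at, -0.035 to 0.11 for INSIG1 201625_s_at, -0.020 to 0.12 for INSIG1 201626_at, -0.16 to 0.0055 for INSIG1 201627_s_at and -0.0037 to 0.26 for SQLE 213562_s_at. With cisplatin they were -0.028 to 0.12 for INSIG1 201625_s_at, -0.068 to 0.15 for INSIG1 201627_s_at and -0.044 to 0.090 for SQLE 213577_at. With nimesulide they were -0.27 to 0.050 for INSIG1 201625_s_at, -0.35 to 0.00046 for INSIG1 201627_s_at, -0.0037 to 0.034 for SQLE 213562_s_at and -0.085 to 0.096 for SQLE 213577_at. Apart from the fits with the block, where the call follows from a smaller SE, the cause of these changes was not tested.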
